A study of Arabidopsis thaliana with 6 samples.

Results

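Genes of the nuclear genome whose products work in the photosynthetic apparatus, 6 in all, were followed across leaves and roots of Arabidopsis thaliana grown with and without lead. They are PSBW and PSBY of photosystem II, PSAE1 of photosystem I, the antenna genes LHB1B2 and LHCB4.1, and RCA, which encodes Rubisco activase. The members were every probe set that the platform annotation assigned to 1 of these 6 loci and to no other gene, which gave 10 of the 8247 probe sets left after control probe sets were set aside. A probe set is a group of short probes on the array that together report 1 transcript, and each was kept apart. In leaves their signals ran from 259 to 6505, and in roots none was above 87.7. No change with lead passed the test in either organ.

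The series holds 6 arrays in 6 groups of 1 array each. The groups were rosette leaves and roots of control plants, leaves and roots of plants given 25 ppm lead, and leaves and roots of plants given 50 ppm lead. All plants were of the accession Col-4 (stock N933), grown in hydroponic culture with days of 10 h at 22 °C, nights of 14 h at 18 °C and a humidity of 70%, and harvested at growth stage 6. Lead was supplied as lead nitrate in 2 additions a week apart, between growth stages 3.9 and 5.1. No group has a replicate array and the labels do not give the number of plants behind an RNA sample, so a p-value here reflects how these 6 arrays vary and nothing wider.

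Photosystem II uses light to split water and passes electrons along the thylakoid membrane to photosystem I, which hands them to ferredoxin. Light-harvesting proteins that bind chlorophyll surround both photosystems and feed them energy. The products of the light reactions drive carbon fixation by Rubisco, an enzyme that needs Rubisco activase to free its active sites of bound inhibitory sugar phosphates. These nuclear genes are known for strong expression in green tissue and low expression in roots.

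Every array was scaled to the same trimmed mean. Signals below 8.00, the 30th percentile over all arrays, were set to that floor before taking log2. The median signal of an array lay between 22.3 and 29.3. The labels list a mean background of 192.65 for roots at 50 ppm and of 69.03 to 97.80 elsewhere. Of the 8247 probe sets, 5395 reached a signal of 25.3 on at least 1 array and were tested, and all 10 members were among them. Each reached that signal in leaves, and 5 also did so on a root array. The 21 root markers looked up have no named probe set, so the root label was not checked against them. The summed signal of 16 probe sets for the members and other photosynthesis genes was 40469.9 to 55689 on the leaf arrays and 245 to 335 on the root arrays. The members alone gave 31215.8 of the 40469.9 in control leaves, so the sum is no separate check of the organ labels.

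PSBW (AT2G30570, chromosome 2) encodes a small membrane protein of photosystem II that helps hold the core and its antenna together. Its probe set 16423_at gave signals of 4437 in control leaves, 6044 with 25 ppm lead and 4803 with 50 ppm. In roots the same probe set gave 3.7 in control and 4.3 at each lead dose. All root values were under the floor, and the leaf and root arrays did not overlap. The second probe set, 16424_g_at, which shares probes with the first, gave 3619, 5647 and 3986 in leaves and 5.2, 4.5 and 4.3 in roots, in the same order of groups. The pair therefore repeat 1 measurement in part.

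PSBY (AT1G67740, chromosome 1) encodes a precursor of low-molecular-mass photosystem II proteins. Its only probe set, 18053_s_at, gave leaf signals of 3952 in control, 6076 at 25 ppm and 3859.9 at 50 ppm. Its root signals were 22.7, 31.8 and 17.3 in the same order. These root values lay above the floor and far below each leaf value. The suffix _s_at marks probes that can also bind similar transcripts, so part of a signal from such a set may come from a relative.

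PSAE1 (PSAE-1 in RefSeq, AT4G28750, chromosome 4) encodes subunit E of photosystem I, on the stromal side where ferredoxin docks. Its probe set 18088_i_at gave 3191, 4199 and 3481 in control, 25 ppm and 50 ppm leaves and 4.6, 4.1 and 3.4 in the matching roots. The probe set 18089_r_at gave 1119, 1414 and 938 in leaves and 9.21, 7.71 and 3.30 in roots. The third, 18090_s_at, gave 4059, 6505 and 3946 in leaves and 38.6, 20.9 and 55.9 in roots. The first set stayed under the floor in every root array, the second passed it only in control roots, and the third lay above it in all 3. The suffixes _i_at and _r_at mark sets that did not meet all the usual rules of probe choice. The relative PSAE-2 has no probe set named for it alone.

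LHB1B2 (AT2G34420, chromosome 2) encodes an Lhcb1 protein of the major antenna trimer of photosystem II. Its probe set 12739_s_at gave leaf signals of 2907 in control, 3070.3 at 25 ppm and 3031 at 50 ppm. Its root signals were 87.7 in control, 87.1 at 25 ppm and 11.6 at 50 ppm. The leaf arrays were level, while the 50 ppm root array stood apart from the other two root arrays. The second probe set, 12738_r_at, gave 285, 259 and 273 in leaves and 8.71, 9.91 and 9.29 in roots, close to the floor on all 3 root arrays. Its root values did not follow those of the first set. LHB1B1, the neighbouring gene on the chromosome, and CAB1, CAB2 and CAB3 of the same family have no probe set named for 1 of them alone.

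LHCB4.1 (AT5G01530, chromosome 5) encodes CP29, a minor antenna protein that links the photosystem II core to the outer trimers. Its probe set 15995_at gave leaf signals of 4636 in control, 6298 with 25 ppm lead and 5099 with 50 ppm. In roots it gave 76.8, 48.2 and 58.9, so it was above the floor on every array. RCA (AT2G39730, chromosome 2), a gene with 3 RefSeq transcripts, has the probe set 15949_s_at. It gave 3010.3, 4197 and 3353 in leaves and 14.5, 8.81 and 27.6 in roots. The lowest leaf value of RCA lay far above its highest root value, as for every other member.

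**Figure D1:**
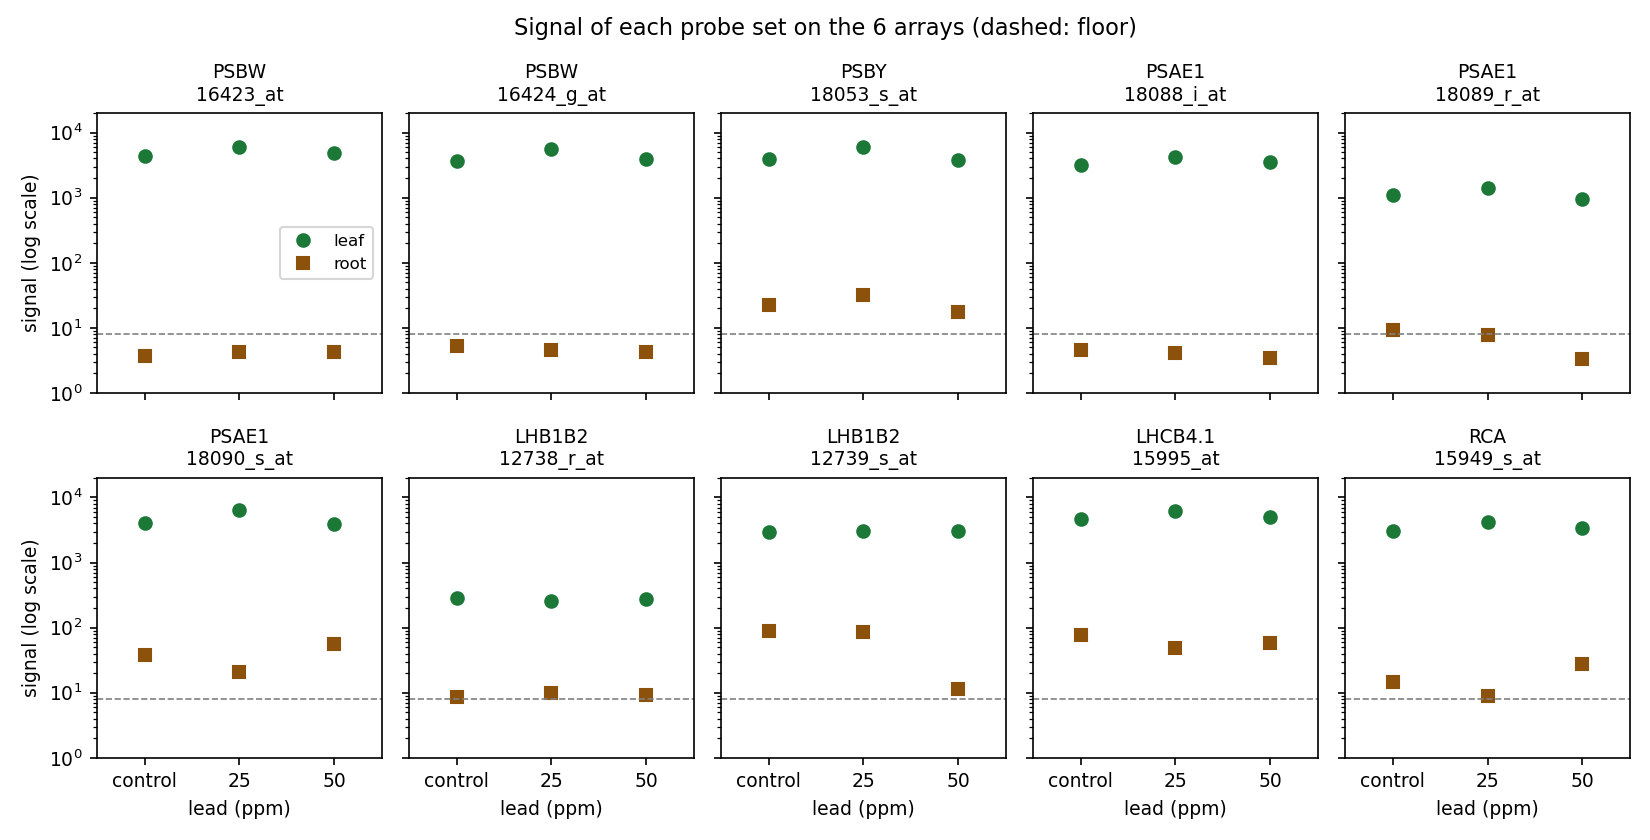
Signal of each of the 10 probe sets (y axis, log scale) on the control, 25 ppm and 50 ppm arrays (x axis, lead in ppm), with leaves as circles, roots as squares and the floor of 8.00 as a dashed line; each point is 1 array. Every leaf point lies above every root point of the same probe set, and 11 of the 30 root points lie under the floor.

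The comparison of organs asks where the genes are expressed. All 10 probe sets were higher in leaves, by limma on the 6 arrays with lead dose as a factor (adjusted p of 0.00066 or lower for each). Among all tested probe sets 21.6% were called higher in leaves. The leaf arrays lay above the root arrays with no overlap for 10 of 10 members and for 24.6% of all tested probe sets. Because 5 members passed the filter on low signals through their leaf values alone, these counts describe them and are not further evidence. In bulk tissue, fewer cells of a type and less RNA per cell cannot be told apart.

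Among the photosystem II genes, all root values of PSBW were under the floor, so its leaf signal was set against the floor of 8.00. Averaged over the 3 doses it was at least 631-fold higher by 16423_at (log2 difference against the floor 9.30, SE 0.22), with 554-fold as the lowest single dose. By 16424_g_at it was at least 542-fold higher. PSBY was 195-fold higher (log2 difference 7.61, SE 0.20). For photosystem I, PSAE1 was at least 450-fold higher than the floor by 18088_i_at on average, with 399-fold as the lowest single dose. By 18090_s_at it was 132-fold higher than in roots (log2 difference 7.05, SE 0.42). By 18089_r_at it was 122-fold higher in control plants, the 1 dose with a root value above the floor. The 3 probe sets of PSAE1 thus gave organ ratios of different size. For 18090_s_at the log2 difference was 6.43 without the 25 ppm arrays. Where all root values sit at the floor, the roots add no spread to the SE, and the size of the difference follows the floor. With the floor at the 50th percentile the log2 difference was 7.64 for PSBW 16423_at, 7.42 for PSBW 16424_g_at, 7.15 for PSAE1 18088_i_at and 5.49 for PSAE1 18089_r_at.

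Averaged over the doses at the floor of 8.00, the antenna genes had the smallest leaf to root ratios, an order that did not hold at 50 ppm, where PSAE1 18090_s_at was 70.7-fold and LHCB4.1 86.5-fold higher in leaves, or with the floor at the 50th percentile. LHB1B2 was 29.3-fold higher in leaves by 12738_r_at (log2 difference 4.87, SE 0.22) and 67.4-fold by 12739_s_at (6.07, SE 0.61, adjusted p = 0.00066, limma). LHCB4.1 was 88.0-fold higher (6.46, SE 0.26). RCA was 229-fold higher (7.84, SE 0.39). The root values of LHB1B2 12738_r_at lie just above the floor, and its log2 difference was 3.43 under a floor at the 50th percentile and 3.51 with an offset of 16. For LHB1B2 12739_s_at the size rests on the 50 ppm root array, since the log2 difference was 5.10 without the 50 ppm arrays. The 95% intervals of neighbours in this order overlapped for LHCB4.1, at 5.81 to 7.11, and PSAE1 18090_s_at, at 5.99 to 8.10. The order is a description, as probe sets differ in how they respond to the same amount of RNA.

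The ratio moved more with dose for some members than for others. For PSBY the leaf signal was 174-fold the root signal in control plants, 191-fold at 25 ppm and 223-fold at 50 ppm. For LHB1B2 12739_s_at it was 33.2-fold, 35.3-fold and 262-fold. For PSAE1 18090_s_at it was 105-fold, 311-fold and 70.7-fold, and for RCA 207-fold, 477-fold and 122-fold. PSBY was thus the steadiest of these 4, and in the other 3 the dose that stood out was not the same. For LHCB4.1 the ratio was 60.4-fold, 131-fold and 86.5-fold. For LHB1B2 12738_r_at, with root values just above the floor, it was 32.8-fold, 26.1-fold and 29.3-fold. The remaining probe sets had root values under the floor at some or all doses. With 1 array per group these differences carry no test.

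**Figure D2:**
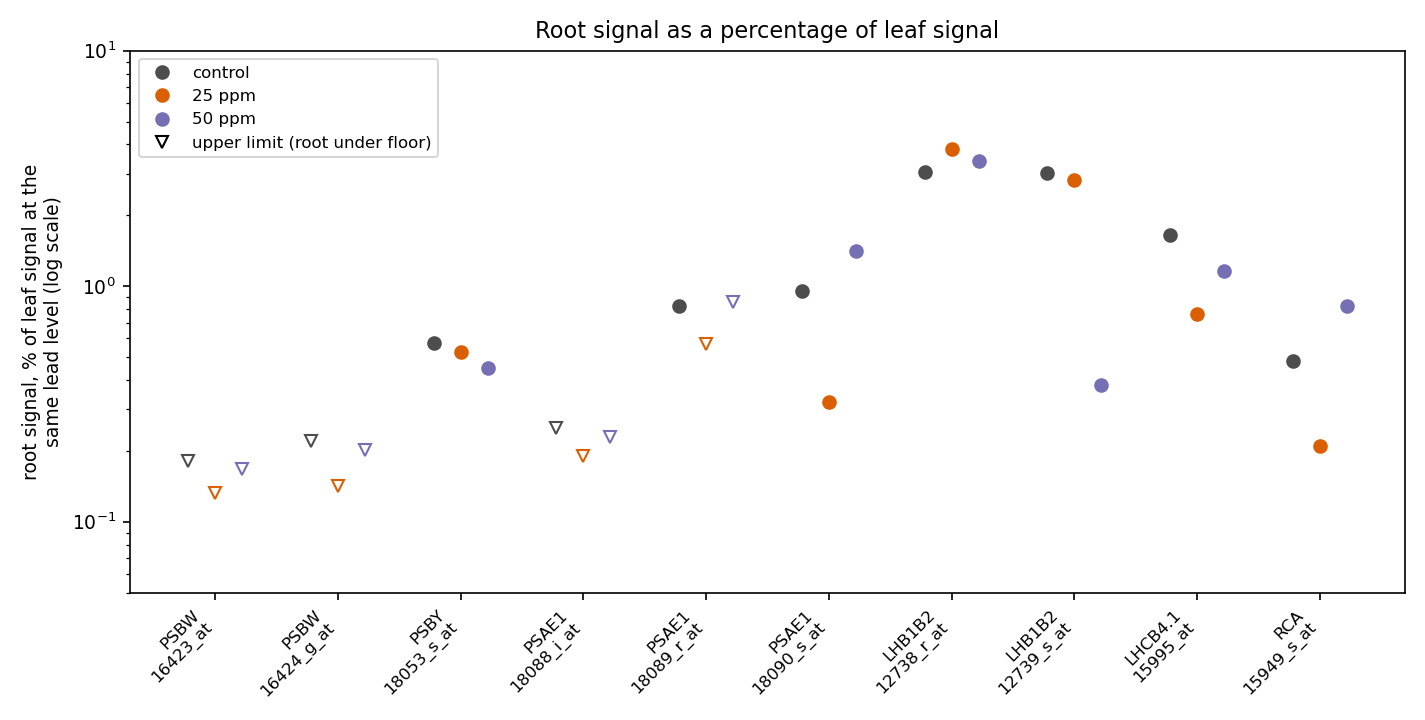
Root signal as a percentage of the leaf signal at the same lead level (y axis, log scale) for each probe set (x axis), coloured by lead level, with open triangles as upper limits where the root value was under the floor. LHB1B2 12738_r_at lies highest at 3.05%, 3.82% and 3.41%, and LHB1B2 12739_s_at lies at 3.02%, 2.84% and 0.382%.

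Whether lead changed these genes in leaves was asked with both lead arrays, as 1 lead group, against the control leaf array. By limma, 0 of 10 members passed, and the background was 0% of 5395 probe sets. At an unadjusted threshold of 0.05, 134 of all tested probe sets and 0 members passed. The estimates for the members ran from -0.10 to 0.39 on the log2 scale, with SEs of 0.29 to 1.18. The 95% interval was -0.54 to 1.10 for PSBW 16423_at, -0.54 to 1.12 for LHCB4.1, -1.05 to 1.64 for PSBY and -1.56 to 2.20 for RCA. The intervals of all 10 probe sets included 0, and they are wide beside the estimates. The SE takes its spread from both organs, which widens the interval of LHB1B2 12739_s_at to -3.02 to 3.16. For PSBW, PSAE1 18088_i_at and PSAE1 18089_r_at the root values at both lead doses were set to the floor. There the roots added no spread, so the SEs and intervals of these probe sets may be too small.

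At 25 ppm the leaf signal of 9 of the 10 probe sets was above the control leaf array, with no test. PSAE1 18090_s_at was 1.60-fold the control, PSBW 1.36-fold and 1.56-fold, PSBY 1.54-fold, RCA 1.39-fold and LHCB4.1 1.36-fold. LHB1B2 was nearest to its control value, at 1.06-fold by 12739_s_at, and at 0.909-fold by 12738_r_at, the 1 probe set below control. The median log2 difference of the members was 0.44, against 0.026 for all tested probe sets, of which 52.1% were above 0. The 25 ppm array was the highest of the 3 leaf arrays for 9 of 10 members, against 35.6% of all tested probe sets. It was also the highest for 60 of the 63 tested probe sets with a mean leaf signal of at least 3000, which include 8 members.

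At 50 ppm the members were close to the control leaf array. The log2 differences ran from -0.25 for PSAE1 18089_r_at to 0.16 for RCA, with a median of 0.087 against 0.042 for all tested probe sets. Signals were above the control at both doses for 6 of 10 members and for 40.4% of all tested probe sets. No member was at least 2-fold from control in 1 direction at both doses, which 2.02% of all tested probe sets were. None was at least 2-fold apart between 50 and 25 ppm in leaves, against 7.91% of all. Under the main scaling 9 of 10 members were thus higher on the 25 ppm leaf array than on the control leaf array. Of these, LHB1B2 12739_s_at was higher by only 1.06-fold. On the 50 ppm array the members lay within -0.25 to 0.16 of control on the log2 scale. Quantile normalization and scaling to the spiked controls, given below, moved the members' median at 25 ppm.

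**Figure D3:**
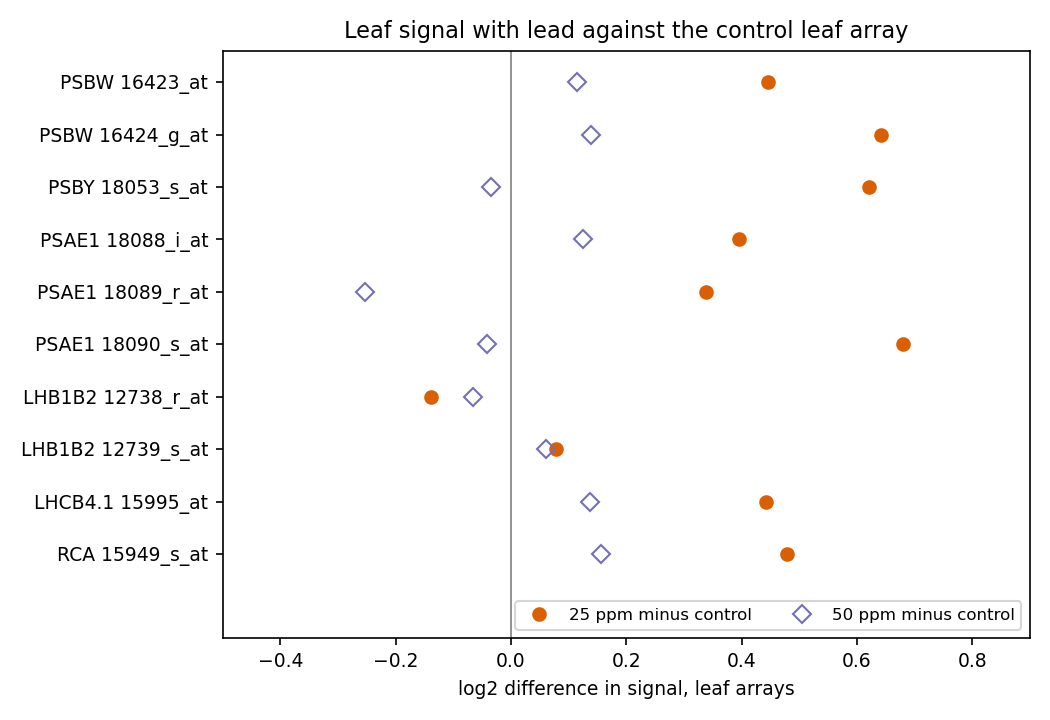
Log2 difference from the control leaf array (x axis) for each probe set (y axis) at 25 ppm (filled circles) and 50 ppm (open diamonds); each point is the difference of 2 arrays. At 25 ppm 9 of the 10 points lie right of 0, with LHB1B2 12738_r_at at -0.14, and at 50 ppm all lie between -0.25 and 0.16.

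Other strong signals moved in the same way on the 25 ppm leaf array. Of the 63 tested probe sets with a mean leaf signal of at least 3000, a class chosen after the values were seen, 100% were higher at 25 ppm than in control leaves. Of these, 8 are members. The median log2 difference was 0.45 over all 63 and 0.45 over the 55 that are not members, with a range of 0.010 to 0.82. LHB1B2 12739_s_at, with a mean just above 3000, was at the low end of the class: 2 of the 63, itself included, had a difference as small as its 0.079. The other members, PSAE1 18089_r_at with a mean leaf signal of 1157 and LHB1B2 12738_r_at with 272, lie well below the class. The median difference was 0.28 among probe sets with mean leaf signals of 2000 to 3000. It was 0.11 from 1000 to 2000, 0.0019 from 300 to 1000 and 0.0085 from 100 to 300. In that last class, which holds LHB1B2 12738_r_at at -0.14, the 10th and 90th percentiles were -0.58 and 0.49.

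The 9 probe sets for spiked control RNA, which is not of plant origin, were on average 1.61-fold as bright on the 25 ppm leaf array as on the control leaf array. Of these, 8 of 9 were brighter. On the 50 ppm leaf array they averaged 0.866-fold the control, with 3 of 9 brighter. Under quantile normalization the members' median log2 difference at 25 ppm was 0.029, and after scaling to the spiked controls it was -0.25. The part that array brightness has in the members' values at 25 ppm was not tested.

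**Figure D4:**
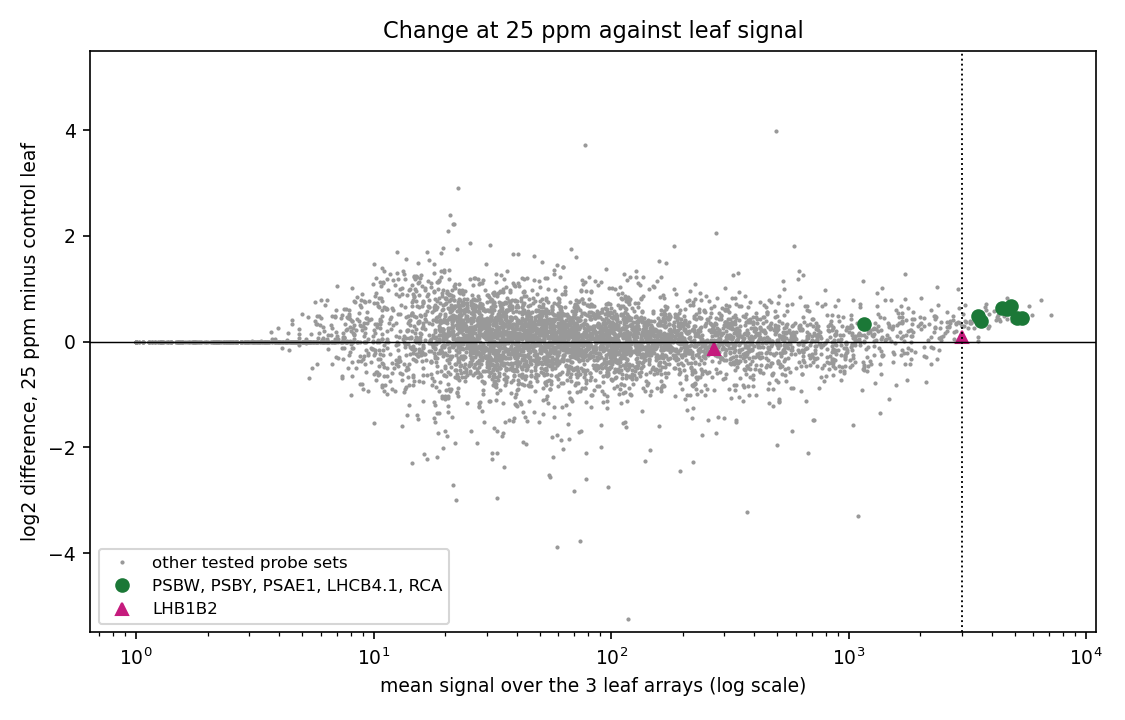
Log2 difference between the 25 ppm and control leaf arrays (y axis) against the mean signal over the 3 leaf arrays (x axis, log scale) for the 5395 tested probe sets (grey), the members other than LHB1B2 (circles) and LHB1B2 (triangles), with a dotted line at 3000. All 63 points right of the line lie above 0, and the LHB1B2 point there, at 0.079, lies near the bottom of them.

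In roots, where the signals are weak, 0 of 10 members passed limma for lead against control, and the background was 0% of 5395 probe sets. At an unadjusted threshold of 0.05, 332 of all tested probe sets and 0 members passed. With 1 of the lead arrays left out, the root test sets 1 array against 1 and takes its spread from the leaf arrays alone. Such fits are given here as estimates only. The estimate for LHB1B2 12739_s_at was -1.46 on the log2 scale (SE 1.18, 95% interval -4.55 to 1.62, adjusted p = 0.971, limma). It was -2.92 without the 25 ppm root array and -0.0097 without the 50 ppm root array. The estimate for LHCB4.1 was -0.53 (SE 0.32, interval -1.36 to 0.31). No member was at least 2-fold from control in 1 direction at both doses, against 4.71% of all tested probe sets. The root estimates of PSBW and of PSAE1 18088_i_at are 0 by construction, since all their root values were at the floor.

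The root doses differed by at least 2-fold for 3 of 10 members, and for 14.2% of all tested probe sets. LHB1B2 12739_s_at was 7.51-fold lower at 50 than at 25 ppm. RCA was 3.13-fold higher at 50 than at 25 ppm, with control roots in between. PSAE1 18090_s_at was 2.67-fold higher, also with control roots in between. The directions thus differed among the members. With an offset of 16 in place of the floor, 1 of these 3 differences was still at least 2-fold. The offset shrinks ratios between weak signals, and the share of all tested probe sets was not computed with it. The 50 ppm root array also had the highest background of the 6 arrays, and its part in these values was not tested.

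Whether lead acted differently in the organs was tested as the leaf change minus the root change. For PSBW 16423_at, PSBW 16424_g_at and PSAE1 18088_i_at the root change is 0, because all their root values were at the floor. Their difference is the leaf change alone, at 0.28, 0.39 and 0.26 on the log2 scale. It therefore cannot test a difference between the organs for these probe sets. By limma 0 of 10 members passed, against a background of 0% of 5395 probe sets. At an unadjusted threshold of 0.05, 202 of all tested probe sets and 0 members passed. The estimate was 1.53 for LHB1B2 12739_s_at (SE 1.68, 95% interval -2.83 to 5.90), and it was 2.99 without the 25 ppm root array and 0.079 without the 50 ppm root array. For LHCB4.1 it was 0.82 (SE 0.45). With 1 of the root lead arrays left out, the spread again comes from the leaf arrays alone, so those fits are given as estimates only.

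The members followed each other closely over the 6 arrays because of the split between organs. Over the 45 pairs of probe sets, Pearson's r of the log2 signals ran from 0.912 to 1.00 with a median of 0.994. Within leaves, the highest of the 3 arrays was 1.65-fold the lowest for PSAE1 18090_s_at, and 1.06-fold for LHB1B2 12739_s_at. The probe sets of 1 gene differed as well: at 25 ppm those of PSAE1 ran from 1.26-fold to 1.60-fold of control. That range includes every value of PSBW, PSBY, LHCB4.1 and RCA at this dose.

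Of 74 other genes listed for the photosystems, antenna, electron transport and Calvin cycle, 6 had a tested probe set of their own. All 6 of these were higher in leaves by limma, against 21.6% of all tested probe sets, and 0 passed for lead in either organ. LHCB4.3, PETM, PRK and SBPASE passed the filter on low signals through their leaf values alone, so the count is a description. PSAN, a photosystem I subunit, gave 2496, 3505 and 2239.9 in control, 25 ppm and 50 ppm leaves and 34.8, 23.3 and 1.4 in roots. PSB27, an assembly factor of photosystem II, gave 2387, 3082 and 2345 in leaves and 23.9, 30.1 and 37.4 in roots. LHCB4.3, the relative of LHCB4.1, gave 363, 629.7 and 399 in leaves and stayed under the floor in roots. PETM of the cytochrome b6f complex, with PRK and SBPASE of the Calvin cycle, were likewise under the floor on every root array. At 25 ppm 6 of 6 were above control leaves, against 52.1% of all tested probe sets, with a median log2 difference of 0.33. At 50 ppm 2 of 6 were, against 53.4% of all, with a median of -0.016. Strong leaf signals at large were higher on the 25 ppm array, as given above, and the part of this here was not tested.

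Chlorophyll synthesis, listed with 17 genes, had 3 tested. PORB, which makes chlorophyllide in the light, was higher in leaves, as was GSA1, an early enzyme of the pathway, by 2.47-fold (adjusted p = 0.0035, limma). HEMA2 was not called. The clock gene GI, the only gene of an 11-gene clock list with a probe set of its own, had 3 of 4 probe sets tested and 0 called in any comparison. Lists of 7 chlorophyll breakdown genes and 10 regulators had no named probe set.

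The genes whose profile over the 6 arrays lay nearest to the members' median profile were found among 2180 other loci by the root mean square distance of mean-centred log2 signals. ECS1 (AT1G31580) was nearest, at 0.18, with leaf signals of 4513, 7164 and 5621 and root signals of 30.6, 25.1 and 26.0. PORB followed at 0.22, PRK at 0.23, HPR, which encodes the photorespiratory enzyme hydroxypyruvate reductase, at 0.24, and AT1G23130 at 0.29. PRK and AT1G23130 lay under the floor on every root array, and PORB and HPR on all but the 25 ppm one. The root part of these 4 profiles is thus largely set by the floor. The members themselves lay between 0.24 for PSAE1 18089_r_at and 1.36 for LHB1B2 12738_r_at. The measure describes 6 arrays, and is led by the split between organs.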

How the data were processed

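The deposited signal values, 1 per probe set and array on a linear scale, are the authors' processed values. Their trimmed means lay between 99.0 and 99.6, and for the software that made them the sources used here give no name. Biotin-labelled cRNA was hybridised to an Affymetrix Arabidopsis array, per the labels' protocols. All 6 columns of values entered the tests, with 0 omitted. After removal of 50 control probe sets, signals were scaled to a common mean with 2% trimmed from each end, floored at the 30th percentile and log2-transformed. Tests used lmFit and eBayes with trend in limma 3.58.1 under R 4.3.3, two-sided, with Benjamini-Hochberg adjustment over the 5395 probe sets and a threshold of 0.05. The lead tests have 2 residual degrees of freedom, the differences between the doses. The models were also run on simulated data to which no floor was applied, where the check was on the size of planted changes. That run does not check the error rate for probe sets at the floor. Figures were drawn with matplotlib 3.10.9.

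Of the probe sets, 3784 name 1 gene in the platform annotation, with symbols updated through RefSeq. Named genes were all probe sets of the 6 members, the 5 loci nearest in profile, and up to 4 tested genes of each list. The members and lists were chosen with earlier results of these data known. Alternatives changed the scaling, floor, filter, fold threshold, model and arrays. The number of arrays limits the precision. No sequences are shown.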

Additional observations from a re-analysis of the deposited data

Results flagged for a closer look

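The spiked hybridisation controls, which were set aside before the tests and used only in 1 alternative scaling, differed between the leaf arrays. Their geometric mean on the 25 ppm leaf array was 1.61 times that on the control leaf array, with single controls from 0.959 to 1.90 times, while the 50 ppm leaf array was at 0.866 times, with single controls from 0.635 to 1.14. The 99th percentile of all signals was 2874 on the 25 ppm leaf array, 2468 on the control leaf array and 2364 on the 50 ppm leaf array.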

How the results depend on the processing

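The higher leaf signal of the 10 probe sets kept its direction and its call in all 170 alternative values computed, with the highest adjusted p at 0.0337 (LHB1B2 12739_s_at, limma). For lead, no member passed under any alternative, but 25 of the estimates changed sign, and the cause was not tested. The sign change of PSBW 16423_at under quantile normalization is counted in leaves and again, as the same value, in the organ difference of the response. No paired analysis was possible for lead because each group holds 1 array. The organ test sets leaf against root within each dose, and without that dose term it called the same number of members, 10, and 1201 of all probe sets higher in leaves. The sizes of the organ differences moved by over 1.5 times with the floor for members with root values at or near it.

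Under quantile normalization the lead estimate in leaves was -0.030 for PSBW 16423_at, -0.030 for PSBY, -0.12 for LHB1B2 12739_s_at and -0.074 for LHCB4.1. In roots it was -0.072 for PSBY, -0.085 for LHB1B2 12738_r_at and -0.059 for RCA. The organ difference of the lead response was -0.030 for PSBW 16423_at, which is its leaf value again, and 0.047 for LHB1B2 12738_r_at. The members' median at 25 ppm in leaves was 0.029. Scaling to the spiked controls, an alternative chosen after the data were seen, gave -0.20 for PSAE1 18089_r_at and -0.17 for LHB1B2 12739_s_at in leaves and 0.076 for PSAE1 18090_s_at in roots. It gave organ differences of the lead response of -0.25 for PSBY and -0.28 for RCA, a median at 25 ppm in leaves of -0.25, and 4 calls for lead in roots among all probe sets. An offset of 16 gave 1 call for lead in roots. It also gave 1 member with a 2-fold dose difference in roots, a count with no share of all probe sets computed. With no filter, 22 probe sets were called for lead in leaves, 36 in roots and 58 for the organ difference of the response. With a mean signal of at least 100 required, 583 were called higher in leaves, from fewer probe sets tested. At 1.5-fold, 3 members differed between the doses in leaves. The share of all tested probe sets was not computed at that threshold, so this count has no background.

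Leaving out 1 array in turn gave 0 to 171 calls for lead in roots and 0 to 121 for the organ difference of the response. The estimates in leaves ranged from -0.034 to 0.62 for PSBY, from -0.25 to 0.34 for PSAE1 18089_r_at and from -0.041 to 0.68 for PSAE1 18090_s_at, with the lowest value without the 25 ppm leaf array in each case. In roots they ranged from -0.39 to 0.49 for PSBY, -0.88 to 0.53 for PSAE1 18090_s_at and -0.72 to 0.93 for RCA. The organ difference of the response ranged from -0.19 to 0.69 for PSBY, -0.052 to 0.54 for PSAE1 18089_r_at, -0.21 to 1.20 for PSAE1 18090_s_at and -0.61 to 1.04 for RCA. A lone lead array is assumed there to vary like the arrays of the other organ. Averaging the probe sets of a gene first, also chosen after the data were seen, gave medians of 0.48 at 25 ppm and 0.062 at 50 ppm in leaves. The 11 of 30 root values under the floor allow no root difference to be measured.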
